A study of Mus musculus with 6 samples.

Results

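The regions described here were the read-rich islands on the autosomes, which are chromosomes 1 to 19 of the mouse. They were chosen by their read numbers: an island was taken when it held at least 500 ChIP reads or at least 500 control reads. Of the 46507 islands in all 3 lists, 176 met this rule: 41 of the spermatocyte list, 73 of the round spermatid list and 62 of the list from wild-type germ cells. These were 0.274%, 0.444% and 0.464% of the autosomal islands of each list, and sets of 3 values below keep this order. The ratio of ChIP to control reads was made from the same numbers that chose the regions, so every fold below is a description and carries no test.

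TH2B is a histone H2B variant of the testis that takes the place of much of the ordinary H2B in male germ cells from meiosis on. Islands are stretches where a peak caller found more reads from the precipitated chromatin than from a control. The study had 6 samples, 3 ChIP libraries and 3 inputs, with 1 library per group and no replicates. Spermatocytes (meiotic) and round spermatids (post-meiotic) came from adult Th2b+/tag mice, which carry 1 copy of TH2B fused at its C-terminal end to His, Flag and Ha tags, and were precipitated with an anti-HA antibody. Total germ cells of adult wild-type mice were precipitated with an anti TH2B antibody. Cells were separated on a BSA gradient for the tagged libraries only. The wording of the protocol leaves it uncertain whether fractions were pooled within or between the cell types, and the cell type labels were followed. It was assumed that each control is the matching input; the wild-type input carries the antibody in 1 label and is an input by its title. No HA ChIP of untagged cells was analysed here.

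Repeated DNA is of several kinds. Satellite DNA forms long tandem arrays beside the centromeres, and mouse autosomes have their centromere at the very start of the chromosome. Clustered gene families arose by repeated duplication of a gene and its surroundings, so that neighbouring copies can be nearly alike. An assembled genome holds fewer satellite copies than the chromosomes do, and a short read from one copy can match many others. How the authors' aligner placed such reads is not given in the sources used here, and its part in the values below was not tested.

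How alike such copies can be is seen in the DNA just before the start of some genes. The pairs below were taken from 3 gene families that lie, by general knowledge of the mouse genome, at loci holding read-rich islands. In each family the closest pair of promoters that was not identical was picked, so the pairs are extremes. Identical pairs numbered 1 among the Pramel genes and 5 among the defensin genes. No pair is shown for the major urinary protein genes, where none reached 80% of bases alike. Pramel genes are relatives of the germ-cell and tumour antigen gene PRAME, Rex2 and Zfp600 encode zinc finger proteins, and the Defa genes encode antimicrobial peptides of the gut. Each line gives the 100 bases before the RefSeq start of the gene in GRCm38.p6, on the strand of the gene, in lower case, with capitals where the 2 genes of a pair differ. The lists are in mm9, and GRCm38 positions were not carried over to it. Strands are minus for Pramel33 and plus for the others, on chromosomes 5 (Pramel), 4 (Rex2 and Zfp600) and 8 (Defa).
Pramel33: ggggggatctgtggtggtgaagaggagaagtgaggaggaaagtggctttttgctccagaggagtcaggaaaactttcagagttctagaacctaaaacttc
Pramel35: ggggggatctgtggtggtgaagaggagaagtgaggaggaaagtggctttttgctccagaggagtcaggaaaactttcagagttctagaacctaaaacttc
Rex2: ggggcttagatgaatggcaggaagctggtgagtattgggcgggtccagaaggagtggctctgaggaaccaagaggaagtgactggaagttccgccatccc
Zfp600: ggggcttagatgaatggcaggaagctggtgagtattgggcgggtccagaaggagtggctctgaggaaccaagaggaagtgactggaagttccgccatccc
Defa35: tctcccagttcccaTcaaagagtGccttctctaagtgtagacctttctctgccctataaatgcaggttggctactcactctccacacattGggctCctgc
Defa36: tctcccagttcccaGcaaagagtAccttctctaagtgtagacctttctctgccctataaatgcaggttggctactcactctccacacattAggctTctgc

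Over all 300 bases of the RefSeq promoter entries, compared base by base without gaps, the Pramel33 and Pramel35 entries differed at 1 base, those of Rex2 and Zfp600 at 4 and those of Defa35 and Defa36 at 6. Of the 18 Pramel genes between Ccng2 and Cxcl13, 12 had an entry, and 9 of these matched another promoter of chromosome 5 at 80% of bases or more, beside 3.06% of all 1701 promoters of that chromosome. Of the 17 zinc finger genes between Tnfrsf8 and Miip, 13 had an entry and 4 had such a match on chromosome 4 (2.70% of its 1632 promoters). Among 30 entries of 52 defensin genes 12 had one on chromosome 8 (2.41% of 1204). The median of the closest matches was 95.2% for the Pramel, 42% for the zinc finger and 50.5% for the defensin entries. Of 14 entries of the 22 major urinary protein genes none had one, and the closest was 57.3%. A comparison without gaps misses copies whose annotated starts are shifted against each other.

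The read-rich islands ranged from short and extremely dense ones to long ones of moderate density. Control density is given as control reads per kb divided by the median of all autosomal islands of the list, which was 22.5, 25 and 32.7 reads per kb. In spermatocytes the read-rich islands ran from 1.66 to 403 times this median, in round spermatids from 1.10 to 336 times, and in the wild type from 1.05 to 21.1 times. A line at 10 times, drawn after the values were seen through a range with no gap, put 18 of 41, 24 of 73 and 5 of 62 islands on the dense side. In the same order of lists, dense islands had a median length of 1600, 1800 and 1600 bp, although the dense group also held islands of 38.8 and 74.6 kb. The less dense ones had medians of 10600, 13200 and 11400 bp, beside 3600, 3400 and 2600 bp for the other autosomal islands. Long islands gather reads by their length, so both kinds meet a rule on read number.

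**Figure D1:**
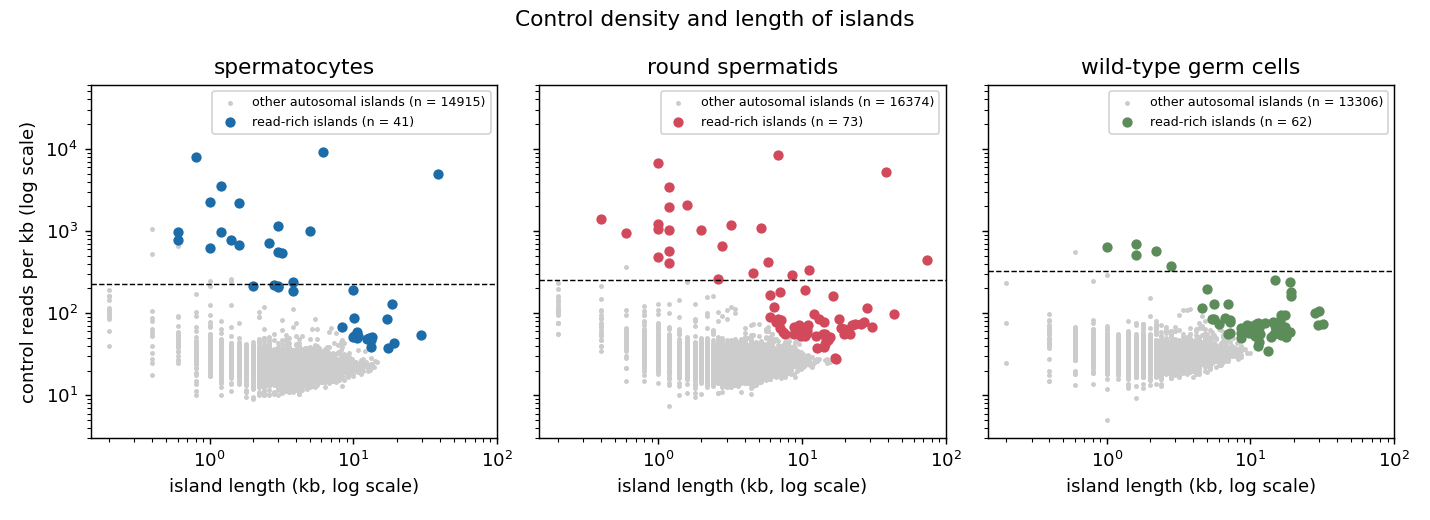
Control reads per kb against island length, both on log scales, with 1 panel per list; coloured points are read-rich islands, grey points the other autosomal islands, and the dashed line is 10 times the median of the list. The tagged lists have points far above the line at lengths near 1 kb, while the wild-type points end at 21.1 times the median.

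Islands just inside and just outside the limit of the rule differed little in reads. In spermatocytes chr16:10975001-10975600 was just inside with 508 ChIP and 460 control reads, and chr5:115372401-115372800 just outside with 487 and 429. In round spermatids chr8:74322401-74329800 had 500 and 434 reads, and chr5:95591801-95599000 had 491 and 463. In the wild type chr5:96204601-96211600 had 513 and 386 reads, and chr17:13498801-13502600 had 487 and 430.

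In the tagged lists a few places held a large part of all reads. The island chr9:2999801-3038600, at the first sequenced bases of chromosome 9 and known as satellite DNA, held 229021 ChIP and 189858 control reads in spermatocytes and 233148 and 204593 in round spermatids. It had the same ends in both lists. It held 11.4% and 9.29% of the ChIP reads in autosomal islands, and 12.02% and 10.8% of the control reads. The next was chr2:98501401-98507600, a satellite-like block inside the chromosome arm, with 60207 ChIP and 56159 control reads in spermatocytes. The same block, called up to 98508200, had 63576 and 57165 in round spermatids. All read-rich islands together held 17.4% of autosomal ChIP reads in spermatocytes and 17.5% in round spermatids, on 338.8 and 896.8 kb. In the wild type they held 4.30%, on 753 kb, and no wild-type island overlapped either satellite place.

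The 5 densest islands of each tagged list lay at nearly the same places. By control reads per kb the order in spermatocytes was chr2:98501401-98507600 with 9058, chr9:35112601-35113400 with 7971, chr9:2999801-3038600 with 4893, chr12:3109201-3110400 with 3519 and chr12:75904601-75905600 with 2224. In round spermatids the first 4 were again on chromosomes 2, 9, 9 and 12, with 8407, 6780, 5273 and 3446, and the fifth was chr6:103598201-103599800 with 2091. Wild-type germ cells had another set with lower values. The first was chr9:24345201-24346800 with 691, and chr5:37051801-37052800 followed with 642. The others were chr4:64157001-64159200 with 571, chr6:29697601-29699200 with 518 and chr13:74665801-74668600 with 373. The wild-type list ends its islands at another base of the window than the tagged lists, and whether reads were filtered alike was not tested.

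Read-rich islands were frequent at chromosome starts in the tagged lists. The first 3 Mb of mouse autosomes in mm9 are unsequenced, and an island counted as at the start when it began before 4 Mb. This held for 6 of 41 islands in spermatocytes (14.6%, exact binomial 95% interval 5.57 to 29.2) and for 11 of 73 in round spermatids (15.1%, 7.77 to 25.4). Of the other autosomal islands 0.644% and 0.989% lay there. In the wild type it was 3 of 62 (4.84%, 1.01 to 13.5), beside 0.669%. The 6 spermatocyte islands lay on chromosomes 4, 9, 11, 12, 13 and 18, and each was overlapped by a read-rich round spermatid island. Round spermatids added 1 island on chromosome 11 and 4 on chromosome 16. The wild-type islands were 2 on chromosome 16 and 1 on chromosome 19. The 4 and 2 islands on chromosome 16 lay close together, within chr16:3111401-3358800. The intervals count neighbouring islands as independent and are therefore too narrow.

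By chromosome, 39 of the 176 islands lay on chromosome 4 and 26 on chromosome 5. A place called in several lists counts in each of them. Of those on chromosome 4, 20 and 6 lay in 2 neighbouring stretches of the zinc finger cluster described below. The share of all autosomal islands on each chromosome was not set beside these counts. Islands closer than 500 kb to each other were joined, which gave 78 loci. The 3 richest loci held 39 islands and the 10 richest held 71, while 35 loci had a single island. A read-rich island of all 3 lists was present at 4 loci, of both tagged lists without the wild type at 21, and of 1 list alone at 6, 19 and 17 by list. Of the 11 duplicated loci listed from general knowledge of the genome, each held at least 1 read-rich island, 67 of 176 in all. That list was made with earlier results of these data known, so the count has no weight as evidence.

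**Figure D2:**
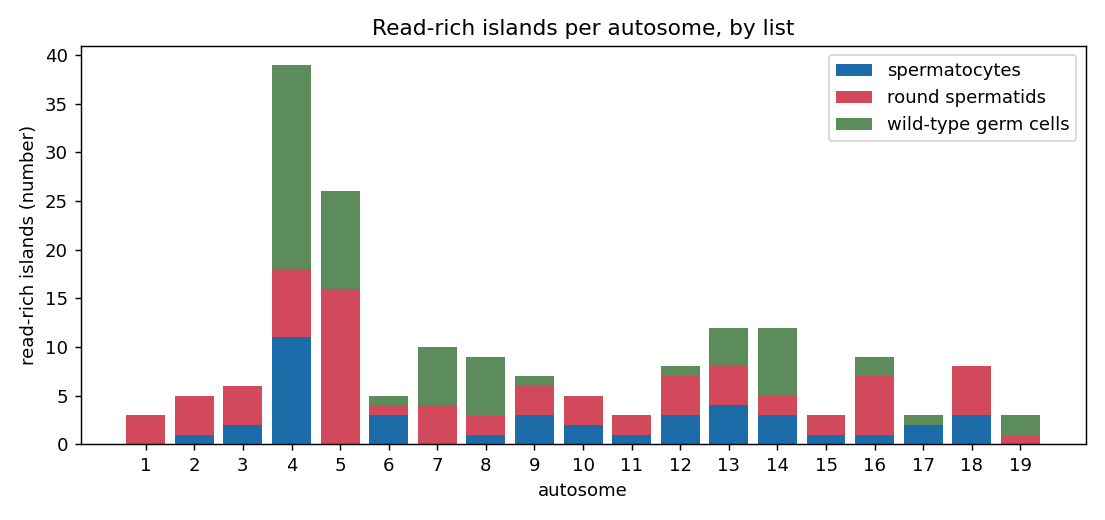
Number of read-rich islands on each autosome, stacked by list. Chromosomes 4 and 5 have the most, with 39 and 26 islands summed over the lists, and chromosome 5 has none from spermatocytes.

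The zinc finger cluster of distal chromosome 4 showed read-rich islands in spermatocytes and wild-type germ cells and none in round spermatids. In a window of 3 Mb there were 7 in spermatocytes, with 6717 ChIP and 7086 control reads, and 19 in the wild type, with 26318 and 23522. Their folds ran from 1.07 to 1.15 in spermatocytes and from 1.07 to 1.41 in the wild type, and their control density from 1.66 to 5.70 and from 1.51 to 5.58 times the median. Counting islands of any read number, the window held 25, 12 and 71 in the 3 lists, round spermatids being the lowest. The densest stretch was called in both lists at nearly the same ends, as chr4:146790001-146808600 with 2176 ChIP and 2385 control reads in spermatocytes and as chr4:146790201-146809200 with 3667 and 3467 in the wild type. Control densities were 5.70 and 5.58 times the median there, and both folds were 1.07 (1.01 to 1.13 and 1.02 to 1.12). The locus chr4:146347201-147187600 had the most read-rich islands of all, 20, and the neighbouring locus chr4:144993401-145732600 had 6. Inside these loci the round spermatid list had 2 and 7 islands, none with more than 183 and 384 reads. Reads of round spermatids outside islands were not analysed here, so no fold can be given for the missing stretches.

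The Pramel cluster of chromosome 5 showed another division. Between 93 and 97 Mb there were 12 read-rich islands in round spermatids, with 14064 ChIP and 13397 control reads, 7 in the wild type, with 7178 and 6587, and none in spermatocytes. Spermatocytes had 16 islands of fewer reads there, round spermatids 40 islands in all and wild-type germ cells 50. Folds ran from 1.07 to 1.23 in round spermatids and from 1.06 to 1.34 in the wild type, at control densities of 1.91 to 3.41 and 1.68 to 3.03 times the median. The longest pair was chr5:94342801-94369800 in round spermatids with 2175 ChIP and 2129 control reads, and chr5:94345801-94373800 in the wild type with 2902 and 2778. The islands of this window made up 2 loci, chr5:95172601-96211600 with 11 read-rich islands and chr5:93935601-94409000 with 8.

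**Figure D3:**
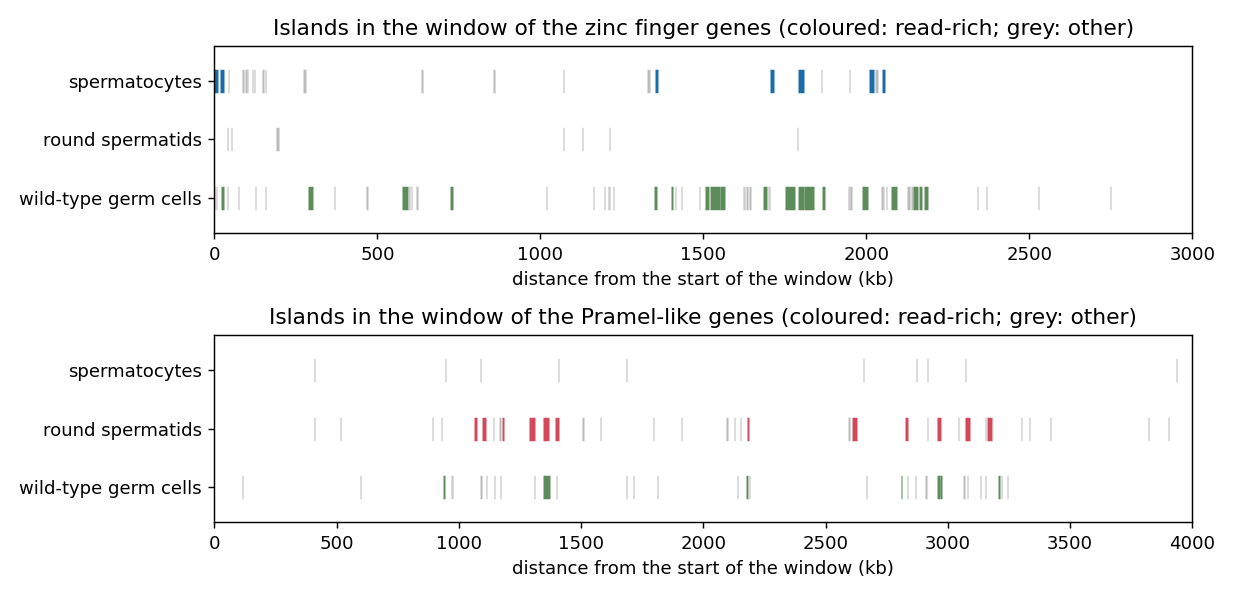
Islands of the 3 lists in the windows of the zinc finger genes and the Pramel genes, by distance in kb from the start of the window; coloured bars are read-rich, grey bars are other islands. The round spermatid row has no coloured bar in the upper panel, and the spermatocyte row has none in the lower.

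Other duplicated loci had fewer. Major urinary proteins are carriers of scent molecules made in the liver, and their window on chromosome 4 (60 to 62 Mb) had 1 read-rich island in spermatocytes, 3 in round spermatids and 1 in the wild type, with folds of 1.08, 1.10 to 1.18 and 1.11. The spermatocyte and wild-type ones overlapped, at chr4:60064601-60094000 (1492 ChIP and 1613 control reads) and chr4:60077401-60088800 (877 and 801). The window of the defensin genes (chromosome 8, 19 to 23 Mb) had 3, all wild-type. Among them chr8:19745601-19764400 held 4776 ChIP and 4549 control reads, the most of any wild-type island, with a fold of 1.06 (1.02 to 1.11). The region of Sfi1, a gene for a centrosomal protein next to the start of chromosome 11, gave the longest island of all, chr11:3025801-3100400 in round spermatids (74.6 kb), with 32890 ChIP and 32669 control reads and a fold of 1.07 (1.05 to 1.08). No island of the other lists overlapped it. Other long islands were chr3:25413801-25457600 in round spermatids (43.8 kb, fold 1.07), chr14:45314001-45333200 in spermatocytes (19.2 kb, 1.10), and in the wild type chr4:146519201-146551000, chr4:146750401-146780400 and chr4:146810001-146839400 (31.8, 30.0 and 29.4 kb), all 3 in the zinc finger cluster.

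The ribosomal RNA unit that the assembly places on chromosome 17 gave a read-rich island in spermatocytes alone, chr17:39983201-39985200, with 533 ChIP and 433 control reads and a fold of 1.44 (1.27 to 1.64). The window of the alpha-takusan genes on chromosome 14 gave 1 wild-type island with a fold of 1.19. The duplicated block of chromosome 12 gave 1 round spermatid island (1.20) and 1 wild-type island (1.21). In the window for the Sp100 repeat of chromosome 1, 2 round spermatid islands lay at its lower edge, with folds of 1.09 and 1.18, and no gene is attached to them here.

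Other rich loci are given by position alone, since no mm9 annotation was used. The locus chr16:3111401-3358800 had 4 read-rich islands in round spermatids and 2 in the wild type, and no spermatocyte island of any size. The locus chr13:12885601-13009200 had 2, 2 and 3 in the 3 lists. The locus chr7:23563401-24066800 had 2 in round spermatids and 2 in the wild type. There were 7 loci with 3 islands each: chr2:98171801-98508200 (the satellite-like block with a neighbour), chr3:92014201-92070000, chr4:61275801-61470600 (in the window of the major urinary proteins), chr4:64157001-64159600, chr9:24341201-24350200, chr11:2999801-3100400 (the Sfi1 region) and chr14:45289201-45333200. The count over the 10 richest loci takes 3 of these 7 tied loci.

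Folds over control were low in nearly all read-rich islands. The fold is the ratio of ChIP to control reads divided by 1 constant per list, as the authors computed it (0.854, 0.944 and 0.989). The median was 1.20, 1.15 and 1.14, beside 1.51, 1.47 and 1.45 in the other autosomal islands. A fold of 1.5 was reached by 1 of 41, 1 of 73 and 0 of 62 read-rich islands, beside 52.0%, 44.1% and 41.4% of all autosomal islands. Nothing is read from these shares, because reads chose the members. An island enters a list by the caller's threshold, and the lowest fold found falls with the number of reads. Among islands with under 100 ChIP reads it was 1.30, 1.30 and 1.31, and with 500 or more it was 1.07, 1.05 and 1.06. The exact interval of counting error lay above 1 in 37 of 41, 67 of 73 and 58 of 62 read-rich islands. Among all autosomal islands it did so in 13088 of 14956, 14070 of 16447 and 11207 of 13368. Every island had passed the caller's threshold, so nothing is read from these counts.

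**Figure D4:**
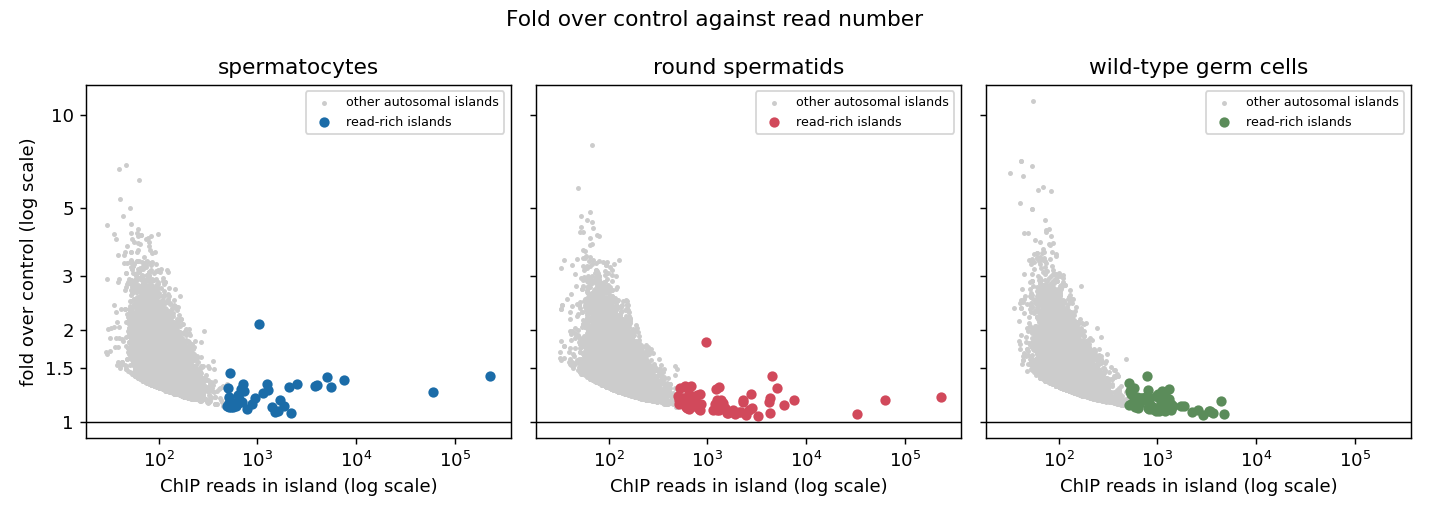
Fold over control against ChIP reads in the island, both on log scales, with 1 panel per list. The lower edge of the cloud falls with reads, and the read-rich islands (coloured) lie close to 1, except 1 island near 2 in each tagged list.

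The island near 2 was the same place in both tagged lists. It was chr13:77577801-77578400 in spermatocytes, with 1045 ChIP and 586 control reads and a fold of 2.09 (1.89 to 2.31), and chr13:77578001-77578400 in round spermatids, with 972 and 563 reads and 1.83 (1.65 to 2.03). Its control density was 43.4 and 56.3 times the median, and no wild-type island overlapped it. After it came chr17:39983201-39985200, above, and chr9:2999801-3038600 with 1.41 (1.40 to 1.42) in spermatocytes. In round spermatids the next were chr6:103598201-103599800 with 1.41 (1.35 to 1.48) and chr14:61553601-61567800 with 1.32 (1.17 to 1.48). The highest wild-type folds were 1.41 at chr4:145723401-145732600, 1.34 at chr5:96204601-96211600 and 1.29 at chr14:64605001-64618200.

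The lowest folds came from islands whose ChIP and control reads were close in number. In 5 of the 9 named here, all 3 of spermatocytes and the first 2 of round spermatids, control reads were the more numerous, and the fold lay above 1 only through the constant of the list. In spermatocytes they were chr4:146790001-146808600, chr4:60064601-60094000 and chr17:92697601-92700800, with 1.07, 1.08 and 1.09. In round spermatids they were chr5:15112601-15141200, chr18:7319401-7325200 and chr7:23992801-24018400, with 1.05, 1.06 and 1.06. In the wild type they were chr5:94345801-94373800, chr8:19745601-19764400 and chr4:146790201-146809200, with 1.06, 1.06 and 1.07.

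Dense islands recurred between the tagged lists, and the less dense ones did so in fewer cases. Of the dense islands 17 of 18 in spermatocytes overlapped a round spermatid island (94.4%, 72.7 to 99.9), and 19 of 24 in round spermatids overlapped a spermatocyte island (79.2%, 57.8 to 92.9). Of the less dense ones it was 9 of 23 (39.1%, 19.7 to 61.5) and 13 of 49 (26.5%, 14.9 to 41.1), beside 16.4% and 15.0% of the other autosomal islands. These intervals too count neighbouring islands as independent. The dense exception in spermatocytes was chr17:92697601-92700800, with 1618 ChIP and 1744 control reads. The round spermatid exceptions were chr2:27350401-27359000, chr10:7228201-7239400, chr11:3025801-3100400, chr14:45289201-45293800 and chr18:7319401-7325200, with folds of 1.10, 1.20, 1.07, 1.11 and 1.06. Dense islands of these lists met wild-type islands in 2 of 18 and 1 of 24 cases (11.1% and 4.17%). With the wild type the less dense ones overlapped more often, in 11 of 23 and 19 of 49 cases (47.8% and 38.8%). Among the other autosomal islands it was 4.43% and 4.81%. Of the 62 wild-type islands, 44 overlapped neither tagged list. Of all 62, 16.1% overlapped a spermatocyte island and 17.7% a round spermatid island, beside 5.01% and 6.04% of the other autosomal wild-type islands.

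At the places shared by both tagged lists, the side of 1 on which the ratio of folds lay depended at some of them on the constants of the lists: 24 of 34 lay below 1 with the constants and 14 without. Overlapping islands were joined to 34 places with a read-rich island in at least 1 list, of which 20 reached 10 times the median in at least 1 list. The ratio of the round spermatid fold to the spermatocyte fold had a median of 0.916 in these 20 (lowest 0.853, highest 1.07) and lay below 1 in 15, while from the reads alone the median was 1.01 and 9 lay below 1. In the other 14 places the median was 0.9499 (0.707 to 1.13), and in the 2403 other shared autosomal places it was 0.983. The counting interval lay below 1 in 10 of the 34 places, beside 3.45% of all 2437 shared autosomal places, and above 1 in 0 of 34, beside 1.76%. Among the 24 places read-rich in both lists it lay below 1 in 9 and above 1 in 0. With more reads an interval narrows: the median place of the 34 held 725.5 and 1200 ChIP reads and the other places 111 and 126, so these shares are not compared.

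From the reads alone the median of the 34 places was 1.02, with 2 intervals below 1 and 8 above, and that of the other shared places was 1.09. Reads alone keep the difference between the constants of the tagged lists (0.854 and 0.944). On that scale 1 is therefore not a neutral mark. Set against the other shared places, which cancels the constants, the read-rich places had 0.939 times their median ratio and the 20 dense places 0.932 times. Reads chose the read-rich places, and the lowest fold in a list falls with reads. The other places had medians of 111 and 126 ChIP reads, and the 34 places 725.5 and 1200. The caller's threshold therefore limits the folds of the 2 sets differently, and no difference between the sets is read from these values.

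The satellite at the start of chromosome 9 was below 1 on both scales. Its fold was 1.41 (1.40 to 1.42) in spermatocytes and 1.21 (1.20 to 1.21) in round spermatids, a ratio of 0.855 (0.848 to 0.862), or 0.945 (0.937 to 0.953) from the reads alone. The other very dense place of chromosome 9, chr9:35112401-35113400, gave 1.37 (1.33 to 1.42) and 1.18 (1.14 to 1.22), a ratio of 0.860 (0.821 to 0.901), or 0.9503 (0.907 to 0.996) from the reads. The block chr2:98501401-98508200 gave 1.26 and 1.18, a ratio of 0.939 (0.924 to 0.954), but 1.04 (1.02 to 1.05) from the reads alone. Thus 2 of the 3 densest places kept their side of 1 without the constants and 1 did not. From the reads alone the median of the other shared places was 1.09, so the side of 1 decides little on that scale.

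Islands at other chromosome starts gave values on both sides. On chromosome 11 the ratio at 2999801 was 0.872 (0.827 to 0.919), on chromosome 4 at 3016401 it was 0.890 (0.835 to 0.949) and on chromosome 12 at 3109001 it was 0.920 (0.868 to 0.975). From the reads alone these were 0.964, 0.984 and 1.02, each with an interval that held 1. On chromosome 13 at 3371801 it was 1.003 (0.862 to 1.17) and on chromosome 18 at 3003601 it was 1.04 (0.956 to 1.14). From the reads alone these were 1.11 (0.952 to 1.29) and 1.15 (1.06 to 1.26), the latter above 1.

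The lowest ratios of the 34 were those at chr5:96070001-96089600 with 0.707 (0.502 to 0.995) and chr5:94342601-94369800 with 0.726 (0.508 to 1.04). The lists share only 7.14% and 5.88% of the length of these places, so different stretches are compared there. Both were read-rich in round spermatids alone, and their spermatocyte islands held 83 and 70 ChIP reads. No listed spermatocyte island with under 100 ChIP reads had a fold below 1.30, so nothing is read from these ratios. Next came chr8:24205401-24207000 with 0.853 (0.734 to 0.990), the chromosome 9 satellite, and chr3:56378401-56380200 with 0.857 (0.765 to 0.958). The highest were chr6:58542401-58555600 with 1.13 (0.953 to 1.35), chr3:92062401-92070000 with 1.12 (0.928 to 1.34) and chr13:12885601-12895800 with 1.10 (0.861 to 1.41). After them came chr14:61547401-61567800 with 1.09 (0.931 to 1.27) and chr9:24341201-24350200 with 1.07 (0.942 to 1.21). Of these 5, those on chromosomes 6 and 13 were read-rich in spermatocytes alone, and that on chromosome 3 in round spermatids alone. The lists share only 17.6% of the length on chromosome 13 and 8.89% on chromosome 9, so largely different stretches are compared there too. On chromosomes 6, 3 and 14 they share 57.6%, 100% and 59.8%, and the median of the 34 places was 62.7%. With the constants none of these 5 highest intervals left out 1. From the reads alone 4 of them lay above 1, with 1.25 (1.05 to 1.49) on chromosome 6, 1.23 (1.03 to 1.48) on chromosome 3, 1.20 (1.03 to 1.41) on chromosome 14 and 1.18 (1.04 to 1.33) on chromosome 9. That on chromosome 13 was 1.22 (0.951 to 1.56). Of the 5 lowest, the chromosome 9 satellite alone had an interval below 1 from the reads. They are the extremes of 34 values, and the intervals are not corrected for that choice.

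**Figure D5:**
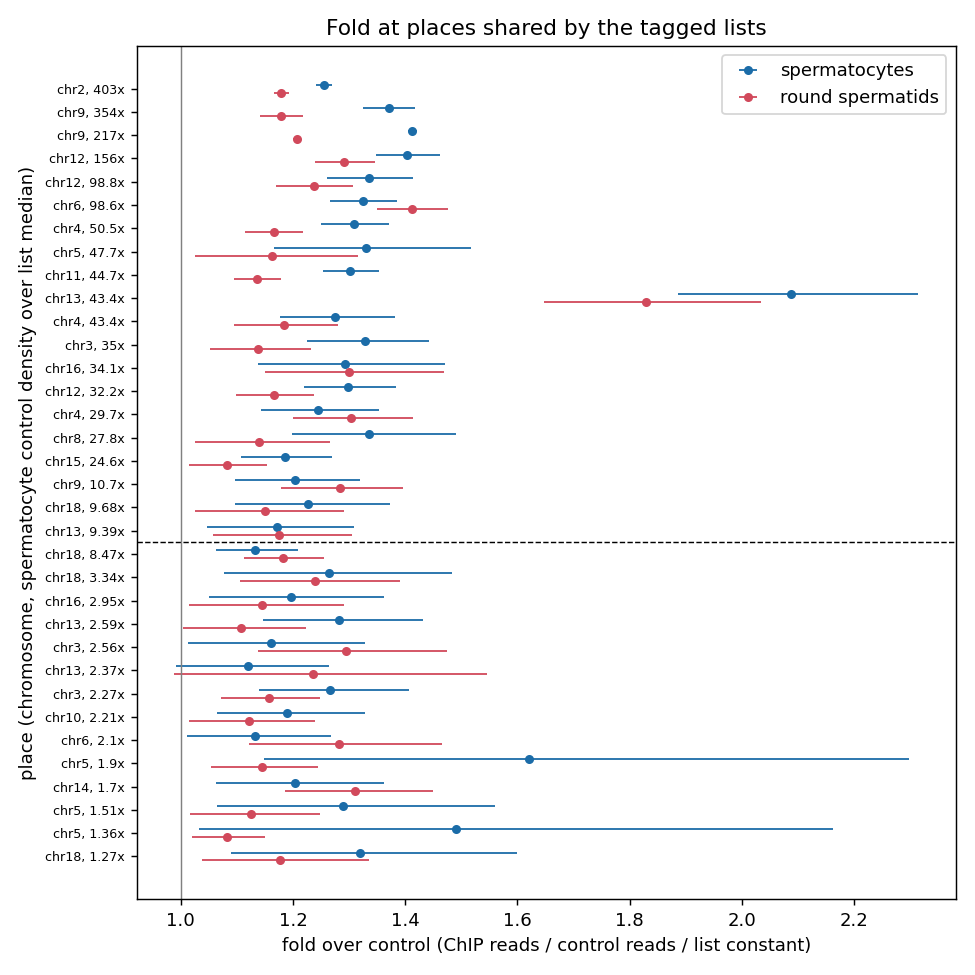
Fold over control in spermatocytes and round spermatids at the 34 shared places, with exact 95% counting intervals, labelled by chromosome and by the spermatocyte control density over the list median; dense places stand above the dashed line, and the grey line marks a fold of 1. In 15 of the 20 dense places the round spermatid point lies to the left of the spermatocyte point, against 9 of 20 from the reads alone, without the constants.

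Control density at shared places was similar in both tagged inputs at many places and differed at some. Across the 34 places the log2 densities of the inputs had a Pearson correlation of 0.973, a description in which both values come from the same sequence. It was 0.901 in the 20 dense places, 0.767 in the other 14 and 0.572 in the 2403 other shared autosomal places. The chromosome 9 satellite had 217 and 211 times the median, the chromosome 12 start 156 and 138 times, chr4:3016401-3019600 had 50.5 and 47.8 times and the chromosome 11 start 44.7 and 43.1 times. Larger gaps occurred at chr18:56098601-56101400 with 9.68 and 38.2 times and at chr5:115371601-115372800 with 47.7 and 16.3 times, where the lists share 21.4% and 33.3% of the length.

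Wild-type read-rich islands with an island in both tagged lists were 3. At chr4:64157001-64159200 the fold was 1.09 (1.01 to 1.18) in the wild type. In the tagged lists it was 1.24 (1.14 to 1.35) for chr4:64158001-64159600 in spermatocytes and 1.30 (1.20 to 1.41) for chr4:64158201-64159200 in round spermatids. At chr9:24345201-24346800 the wild-type fold was 1.17 (1.08 to 1.27), beside 1.20 (1.10 to 1.32) in spermatocytes and 1.28 (1.18 to 1.40) in round spermatids. At chr13:12978601-12989200, which has the same ends in spermatocytes and wild-type germ cells, the folds were 1.28 (1.15 to 1.43) in spermatocytes and 1.17 (1.05 to 1.31) in the wild type, with 1.11 (1.004 to 1.22) in round spermatids. Control densities there were 2.59, 2.88 and 1.68 times the medians. The fourth locus with all 3 lists, chr14:45289201-45333200, had its round spermatid island apart from the others. Cells, genotype, antibody and input all differ between the tagged and wild-type lists, and their effects cannot be told apart.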

How the data were processed

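TH2B ChIP-seq islands were analysed in 3 lists, 1 per ChIP library. Per the submitters' processing notes, islands were called with SICER on mm9. Window (200 bp) and gap (600 bp) were read from the list names. An aligner, tool versions and read filters were not given in the sources used here. Per island, the authors deposited 2 read counts (ChIP and control), a p-value and FDR, and a fold, the ratio of the counts over 1 constant per list. Blank lines were skipped, and starts are counted from 1. Depth is known inside islands only: 1775998 to 2510450 ChIP reads in autosomal islands per list. Counting intervals are exact (Clopper-Pearson) for folds and shares, and from the 4 counts on the log scale for ratios of folds, at 95%. They cover counting error only, and no p-value was computed. Intervals of shares treat islands as independent, which neighbouring islands of the same locus are not. Overlap meant at least 1 bp. Islands named are, per list, the 5 densest, 3 longest, and 3 of highest and lowest fold, with the 10 richest loci, those in all 3 lists, the 5 highest and lowest ratios, the islands nearest the read limit, and the duplicated loci. Dense exceptions and chromosome starts were named after their values were seen. Members and lists were chosen with earlier results of these data known. Intervals of folds and of their ratios were checked on simulated counts with counting error alone, and overlaps on planted islands. The simulation applied no caller threshold and no choice by reads. Python 3.11.15, numpy 2.4.6, pandas 2.3.3, scipy 1.17.1 and matplotlib 3.10.9 were used. Promoters are RefSeq entries of GRCm38.p6; no mm9 sequence or annotation was used. Alternatives covered read minimum, FDR, windows, overlap and constants.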

Additional observations from a re-analysis of the deposited data

How the results depend on the processing

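With 1 library per group, replicate error is unknown, and reads outside islands limit what an absent island says. No paired analysis was possible because each group has 1 sample. Of 68 alternatives, 37 kept a value inside its limits (1.5 times for counts), 30 moved it and 1 turned its direction; the cause was not tested. Values follow in the order spermatocytes, round spermatids, wild type. Read-rich islands numbered 88, 228 and 171 at a minimum of 300 reads, 19, 38 and 28 at 1000, and 25, 38 and 35 at an FDR of 0.0001; with at least 100 control reads per kb, the wild-type list had 22. Dense wild-type islands numbered 9 at 5 times and 1 at 20 times the median, settings chosen after seeing the data. The median fold was 1.30, 1.13 and 1.13 at 1000 reads and 1.29, 1.19 and 1.20 at the stricter FDR. The fold from summed reads, which is not a median, was 1.36 and 1.18 in the tagged lists. The chromosome 9 satellite held 65.7% and 53.2% of the ChIP reads in that sum. With no constant the median was 1.03 and 1.08 in the tagged lists. Median control density at 1000 reads was 43.4, 7.49 and 2.43 times. Overlap with the other tagged list was 78.9% in spermatocytes at 1000 reads and 31.5% in round spermatids with 50% reciprocal overlap; overlap of wild-type islands with either tagged list went from 29.0% to 17.7% with reciprocal overlap. Without the constants the median ratio of round spermatids to spermatocytes turned from 0.923 to 1.02, and intervals below and above 1 went from 10 and 0 to 2 and 8. The other shared places had a median of 1.09 without the constants, so 1 is not a neutral mark there.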
